A study of Bos taurus with 6 samples.

Results

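The TIMM and TOMM genes encode the translocases of the inner and outer mitochondrial membrane and their helpers. They were taken from an expression table of bovine fetal fibroblasts (bEFs), of transgenic (FT) and wild-type (WT) origin, by gene name, as every gene whose name starts with TIMM or TOMM. The name picked 23 of the 17663 genes in the table, 13 TIMM and 10 TOMM genes. The study asked how the fat-1 transgene, which encodes a desaturase that makes n-3 from n-6 polyunsaturated fatty acids, affects energy metabolism in cattle cells. FT bEFs were grown from 3 fetuses that carry the exogenous gene and WT bEFs from 3 Luxi cattle fetuses without it. All fetuses were 50 to 60 days old. The cells were primary cultures, freed with collagenase from fetal tissue without bones, viscera, limbs or head. The poly(A) RNA libraries carry the names that the study gives the fetuses, FT_1 to FT_3 and WT_1 to WT_3. They were therefore taken as 1 library per fetus, while the sample labels give replicate numbers only. The breed of the FT fetuses, the promoter of the transgene and whether the FT fetuses share 1 founder are not given in the sources used here, so transgene, founder and breed cannot be told apart.

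Nearly all mitochondrial proteins are encoded in the nucleus, made in the cytosol and carried into the organelle. They enter through the TOM complex of the outer membrane, where receptors bind the precursor and a channel lets it pass. From there the TIM23 complex takes proteins with a cleavable presequence, and small TIM chaperones of the intermembrane space bring carrier proteins to the TIM22 complex.

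Sequencing depth, as the sum of all counts, came to 63366834, 48167642 and 54204446 for FT_1, FT_2 and FT_3, and to 69777641, 51310741 and 54271927 for the WT libraries. The 23 genes together took 0.0564 to 0.0609% of the counts in FT libraries and 0.0795 to 0.0897% in WT libraries. Counts of a single gene in a library ran from 15 counts of TOMM20L in FT_2 to 7536 counts of TOMM70 in WT_1.

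FT_1 stood apart from FT_2 and FT_3. For pairs of libraries, the relative spread of gene levels that counting noise does not cover (edgeR's biological coefficient of variation) came to 56.9 and 57.6% for FT_1 against FT_2 and FT_3. It was 8.23% between FT_2 and FT_3 and 9.99 to 13.4% between WT libraries. The 6 epithelial markers summed to an FPKM (fragments scaled to gene length and library total) of 432 in FT_1, 12.7 in FT_2, 11.9 in FT_3 and 7.83 to 13.9 in WT cells. Their most abundant gene by the mean over the 6 libraries, the measure used for all lists, was KRT5, at 172, 2.57 and 1.63 in the FT libraries. CDH1 was higher than KRT5 in each library but FT_1, and EPCAM, KRT5, KRT14, KRT8 and KRT18 were at 0 in all WT libraries. The 3 measured mesothelial markers summed to 200, 45.0 and 46.3 in FT_1, FT_2 and FT_3 and to 2.32 to 3.48 in WT cells. Nearly all of this was MSLN. UPK3B had 1.03, 0.1 and 0.09 in FT cells and 0.2 to 0.25 in WT cells, so FT_2 and FT_3 were below WT, and the gene WT1 was at 0 in FT cells and at most 0.05 in WT cells.

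The 10 fibroblast markers were present in all libraries. They summed to 6828 in FT_1, 17047 in FT_2, 16783 in FT_3 and 17272 to 17821 in WT cells. The most abundant by the mean was VIM, although DCN exceeded it in FT_1 and FT_2. VIM had an FPKM of 1244, 3850 and 4171 in the FT libraries and 7312 to 8178 in WT cells. The genes of the list went both ways, and DCN had 1803, 4092 and 3769 in FT cells and 2054 to 2299 in WT cells, and LUM and PDGFRB were likewise above WT in FT_2 and FT_3 and below it in FT_1. PDGFRA had 218, 166 and 141 in FT cells and 87.0 to 99.7 in WT cells, and was the only 1 of the 10 that edgeR called with all libraries by the test of the next paragraphs (higher, log2 fold change 1.06, edgeR adjusted p = 0.0053). VIM was called lower by DESeq2 (DESeq2 adjusted p = 0.0133) and by limma (limma adjusted p = 0.0462), and DCN higher by DESeq2 (DESeq2 adjusted p = 0.0468). Without FT_1 edgeR called VIM lower and COL1A1, PDGFRA, PDGFRB, DCN and LUM higher.

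The 5 adipocyte markers summed to 1.52 in FT_1, 10.9 in FT_2, 11.9 in FT_3 and 132 to 147 in WT cells. Nearly all of the WT sum was FABP4 (128 to 143), and the other genes of the list went both ways. CIDEC had at most 0.08 in FT cells and 2.27 to 3.20 in WT cells, LEP had 0.03, 4.91 and 4.45 in FT cells and 0.02 to 0.09 in WT cells, and PLIN1 had 1.31 to 1.49 in FT cells and 1.23 to 1.27 in WT cells. Marker genes beyond the most abundant of a list were named after their values had been seen. The other lists were low: up to 1.52 for endothelial markers (most abundant PECAM1), 5.77 for muscle markers (DES), 7.93 for leukocyte markers (CD14) and 12.9 for neural crest markers (S100B). Some of these also differed between groups. DES had 5.74, 4.01 and 3.17 in FT cells and 0.07, 0 and 0 in WT cells (edgeR adjusted p = 0.00488) and was called with any 1 library left out, while MYF5 of the same list had 0.03, 0.59 and 0.61 in FT cells and 1.06 to 1.93 in WT cells. The leukocyte markers summed to 3.52 to 4.12 in FT cells and 6.65 to 7.93 in WT cells. Among them CD68 was called lower (edgeR adjusted p = 0.0185), a call lost without FT_2, WT_1, WT_2 or WT_3 (edgeR adjusted p up to 0.0768). The part of these cell type differences in the results was not tested, and a lower level of a transcript in a bulk culture does not tell fewer cells that express it from less RNA per cell. Results are therefore given with and without FT_1 where it matters.

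Counts were compared with edgeR's quasi-likelihood test after TMM scaling, and a gene was called at a Benjamini-Hochberg adjusted p under 0.05 over all 13482 tested genes. All 23 genes passed the filter on low counts. 12 were called lower and 2 higher in FT cells, and 9 were not called. Of all tested genes, 18.9% were called lower and 20.1% higher. The median log2 fold change was -0.38 for the 23 genes and 0.03 for all tested genes. Without FT_1 the counts of called members were again 12 and 2, where 31.5% of all genes tested in that fit were lower and 30.6% higher, and the median of the members was -0.42. A second rule took genes at an unadjusted p under 0.05 whose absolute log2 fold change exceeded 1. By it, edgeR called 6 members lower, against 8.96% of all tested genes. No member passed that rule in the other direction, which 10.2% of all genes did, since the 2 members called higher had log2 fold changes of 0.54 and 0.63.

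In TMM-scaled counts relative to library size, the 3 FT values lay below the 3 WT values in 13 members and above them in 2. Over all tested genes these shares were 29.4 and 28.3%. In FPKM the FT values lay below the WT values in 16 members and above them in 2, against 36.9 and 21.8% of all tested genes. With library totals in place of TMM factors, 62.4% of the called genes were lower in FT cells, against 48.4% with TMM, and the median log2 fold change of all genes moved by -0.15. In limma on log2(FPKM + 1) it moved by -0.16, so differences in FPKM read lower than the fitted fold changes. The cause of this shift was not tested.

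**Figure D1:**
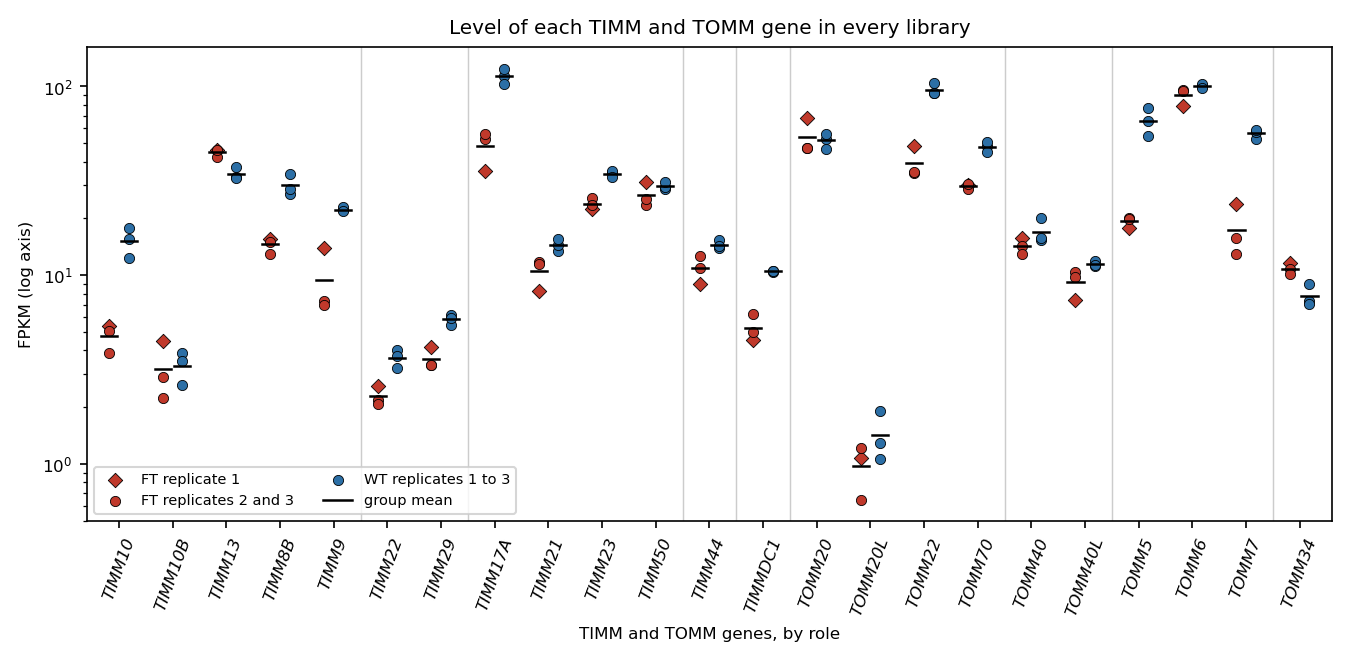
FPKM of the 23 TIMM and TOMM genes (log axis) in the 3 FT (red, FT_1 as a diamond) and 3 WT (blue) libraries, with group means as bars and lines between roles. FT points lie below all WT points in 16 genes and above them in TIMM13 and TOMM34.

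The small TIM chaperones guide hydrophobic precursors across the intermembrane space. Of the 5 measured, 3 were lower in FT cells, 1 was higher and 1 was not called, beside 18.9 and 20.1% of all tested genes, and their median log2 fold change was -0.88. TIMM10 (ENSBTAG00000024701, chromosome 15, 80788220 to 80790815 in the authors' table), which forms a hexamer with TIMM9, had an FPKM of 5.42, 3.88 and 5.07 in FT_1, FT_2 and FT_3 and of 15.6, 17.8 and 12.3 for the WT libraries in the same order. All FT values were less than the lowest WT value. TIMM10 fell by 1.5 on the log2 scale (SE 0.22, edgeR adjusted p = 0.00405), and its log2 fold change was -1.59 without FT_1.

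TIMM9 (ENSBTAG00000010503, chromosome 10, 70683476 to 70699660) had an FPKM of 14.0, 7.31 and 6.96 in FT cells and 22.1, 23.0 and 21.9 in WT cells. FT_1 was at 1.97 times the mean of FT_2 and FT_3, yet still below each WT library. The size of the TIMM9 fold change depended on FT_1 accordingly: it was -1.09 with all libraries (SE 0.28, edgeR adjusted p = 0.0255) and -1.47 without FT_1 (edgeR adjusted p = 1.53e-06). When FT_2, FT_3, WT_1, WT_2 or WT_3 was left out in its place, TIMM9 was no longer called, with edgeR adjusted p from 0.066 to 0.0844. The log2 fold change of TIMM9 was -1.1 to -0.92 in those fits. TIMM9 overlaps KIAA0586 on the opposite strand by 977 bases. How the authors counted reads by strand is not given in the sources used here, and KIAA0586 was itself lower in FT cells (log2 fold change -0.67), so the TIMM9 value is uncertain to that extent.

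TIMM8B and TIMM13 belong to the chaperone pair that delivers some inner membrane proteins. TIMM8B (ENSBTAG00000002000, chromosome 15, 22395340 to 22397325) had an FPKM of 15.6, 15.1 and 13.0 in FT cells and 26.9, 34.6 and 28.6 in WT cells. TIMM13 (ENSBTAG00000013623, chromosome 7, 21154979 to 21156156) had 46.3, 42.1 and 46.2 in FT cells and 33.2, 37.6 and 32.8 in WT cells. The groups did not overlap in either gene, and the directions were opposite. TIMM8B fell by 0.88 (SE 0.15, edgeR adjusted p = 0.00579) and TIMM13 rose by 0.54 on the log2 scale (SE 0.09, edgeR adjusted p = 0.00651). Both calls held when any 1 library was left out, with edgeR adjusted p of up to 0.0255 for TIMM8B and 0.04 for TIMM13. SDHD, a subunit of succinate dehydrogenase that starts 127 bases from TIMM8B on the other strand, fell by 1.13. LMNB2, which lies 452 bases from TIMM13, fell by 0.53.

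TIMM10B, a part of the TIM22 complex, was not called. Its FPKM was 4.49, 2.88 and 2.23 in FT cells and 3.86, 3.5 and 2.63 in WT cells, so the groups overlapped and FT_1 was the highest library. The log2 fold change was 0.10 (95% confidence interval -0.75 to 0.94), and it turned to -0.21 without FT_1 and to -0.05 with library totals only.

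The TIM22 complex inserts carrier proteins into the inner membrane. Its channel gene TIMM22 had an FPKM of 2.60, 2.20 and 2.09 in FT cells and 4.01, 3.74 and 3.22 in WT cells. TIMM29, a further subunit, had 4.18, 3.35 and 3.34 in FT cells and 5.47, 6.14 and 5.96 in WT cells. Neither gene showed overlap between groups. The log2 fold changes were -0.51 for TIMM22 (SE 0.15, edgeR adjusted p = 0.0409) and -0.54 for TIMM29 (SE 0.14, edgeR adjusted p = 0.0303). Both calls depended on every library but FT_1. Without FT_1 the edgeR adjusted p was 0.00368 for TIMM22 and 0.00142 for TIMM29, whereas leaving out any other library gave 0.0588 to 0.149 for TIMM22 and 0.0765 to 0.104 for TIMM29. The fold changes stayed near their size in those fits, at -0.60 to -0.45 for TIMM22 and -0.59 to -0.49 for TIMM29. TIMM22 also lost its call without the filter on low counts (edgeR adjusted p = 0.0527).

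The TIM23 complex passes presequence proteins through the inner membrane. Of its 4 genes in the table, 2 were lower in FT cells, as were 18.9% of all tested genes, and 2 were not called. TIMM17A (ENSBTAG00000047059, chromosome 16, 80532691 to 80543813), a core subunit, had an FPKM of 35.9, 52.8 and 55.8 in FT cells and 114, 124 and 103 in WT cells. It had the highest mean of the 23 genes in WT cells and ranked 3 in FT cells. FT_1 was the lowest library, and all FT values were under the WT values. TIMM17A fell by 1.08 on the log2 scale (SE 0.19, edgeR adjusted p = 0.00793), with a log2 fold change of -0.90 without FT_1.

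TIMM23 (ENSBTAG00000011694, chromosome 28, 44014883 to 44035987), which lines the channel together with TIMM17A, had an FPKM of 22.4, 25.5 and 23.5 in FT cells and 34.8, 35.8 and 33.0 in WT cells. The groups were apart, and the log2 fold change was -0.38 (SE 0.09, edgeR adjusted p = 0.0177). The call was lost without FT_3, WT_1 or WT_2 (edgeR adjusted p = 0.0561, 0.0719 and 0.0676). The log2 fold changes in those fits were -0.38, -0.38 and -0.35. TIMM23 overlaps the start of PARG on the opposite strand by 234 bases and holds the small RNA gene RF00090, and PARG was not called with all libraries (log2 fold change 0.18) but was called higher without FT_1 (0.26, edgeR adjusted p = 0.0108).

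TIMM50, the receptor that takes presequences from the TOM complex, had an FPKM of 31.3, 23.5 and 25.3 in FT cells and 28.7, 29.5 and 31.1 in WT cells. The groups overlapped through FT_1. The fitted log2 fold change was 0.00 (95% confidence interval -0.29 to 0.29), with -0.11 without FT_1 and -0.15 with library totals only. TIMM21, which tethers TIM23 to the TOM complex, had 8.25, 11.8 and 11.5 in FT cells and 13.5, 14.5 and 15.6 in WT cells. All FT values were lower than the WT values, FT_1 most of all, but the log2 fold change of -0.30 (95% confidence interval -0.73 to 0.13) did not pass the test, nor did that of -0.15 without FT_1. TIMM44, which anchors the import motor to the channel, had an FPKM of 9.01, 12.7 and 11.0 in FT cells and 13.9, 15.4 and 14.3 in WT cells. Its groups were apart in FPKM but overlapped after TMM scaling, and edgeR did not call it (log2 fold change -0.26). The log2 fold change of TIMM44 was -0.13 without FT_1 and -0.38 without FT_2, again with no call (edgeR adjusted p = 0.254 and 0.0945). limma called TIMM44 on log2(FPKM + 1), where its log2 fold change was -0.40 (limma adjusted p = 0.0482), but not without the filter on low FPKM, at the same fold change (limma adjusted p = 0.0662).

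TIMMDC1, an assembly factor of respiratory complex I and no subunit of a translocase, had an FPKM of 4.57, 6.26 and 5.0 in FT cells and 10.4, 10.6 and 10.5 in WT cells. It was well below WT in each FT library. TIMMDC1 fell by 0.83 on the log2 scale (SE 0.15, edgeR adjusted p = 0.00872), with a log2 fold change of -0.73 without FT_1.

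On the outer membrane, 4 genes encode precursor receptors or a close relative. TOMM22 (ENSBTAG00000010157, chromosome 5, 110314071 to 110316041), the central receptor that also holds the TOM complex together, had an FPKM of 48.3, 34.7 and 35.5 in FT cells and 92.7, 104 and 92.5 in WT cells. The highest FT library, FT_1, reached 1.38 times the mean of FT_2 and FT_3 and was still below all WT libraries. TOMM22 fell by 1.13 on the log2 scale (SE 0.14, edgeR adjusted p = 0.00249), with a log2 fold change of -1.29 without FT_1. TOMM70 (ENSBTAG00000014302, chromosome 1, 44650783 to 44687949), the receptor for carrier precursors, had 30.1, 28.8 and 30.4 in FT cells and 48.5, 50.6 and 45.2 in WT cells. Its FT libraries were alike, FT_1 included, and TOMM70 fell by 0.53 (SE 0.08, edgeR adjusted p = 0.00354).

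TOMM20, the main presequence receptor, behaved otherwise. Its FPKM was 67.9, 47.1 and 47.2 in FT cells and 52.8, 56.1 and 46.6 in WT cells, so that FT_1 was the highest and FT_2 and FT_3 lay inside the WT range. The log2 fold change was 0.22 (95% confidence interval -0.18 to 0.61) and 0.03 without FT_1. TOMM20L, a paralogue of TOMM20, was the lowest of the 23 genes, with an FPKM of 0.65 to 1.22 in FT cells and 1.07 to 1.92 in WT cells. It held 15 to 62 counts per library, and its log2 fold change of -0.37 had a 95% confidence interval of -1.40 to 0.67. With 1 library left out the log2 fold change ran from -0.56 to -0.1.

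Neither channel gene was called by edgeR or DESeq2. TOMM40, the pore of the TOM complex, had an FPKM of 15.7, 14.2 and 13.0 in FT cells and 15.3, 20.0 and 15.7 in WT cells, and the groups overlapped. For TOMM40 the log2 fold change was -0.10 (95% confidence interval -0.42 to 0.23), and it turned to 0.03 without WT_2. TOMM40L, its paralogue, had 7.44, 10.4 and 9.81 in FT cells and 11.3, 11.9 and 11.3 in WT cells, with FT_1 as the lowest library. Its log2 fold change was -0.15 with all libraries and -0.01 without FT_1. TOMM40L overlaps NR1I3 on the opposite strand by 1179 bases, but NR1I3 had at most 26 counts in a library.

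The small TOM subunits steady the complex around the channel, and the 3 genes split. TOMM5 (ENSBTAG00000032777, chromosome 8, 61691238 to 61694543) had an FPKM of 17.9, 20.2 and 20.0 in FT cells and 65.3, 76.8 and 54.8 in WT cells. TOMM7 (ENSBTAG00000051150, chromosome 4, 31520444 to 31527812) had 23.7, 15.7 and 12.9 in FT cells and 52.8, 57.7 and 58.7 in WT cells. TOMM6 (ENSBTAG00000008977, chromosome 23, 15600547 to 15601893) had 78.9, 95.9 and 95.1 in FT cells and 100, 103 and 97.8 in WT cells. TOMM5 and TOMM7 were far below WT in each FT library, while TOMM6 differed little.

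TOMM5 fell by 1.6 on the log2 scale (SE 0.15, edgeR adjusted p = 0.00119), the largest fall of the 23 genes with all libraries. TOMM7 fell by 1.54 (SE 0.23, edgeR adjusted p = 0.00398), with a log2 fold change of -1.81 without FT_1, which was its highest FT library. TOMM6 had a log2 fold change of 0.00 (95% confidence interval -0.26 to 0.26), or -0.15 with library totals only, and the highest mean FPKM of the members in FT cells. A gene with no symbol that the table describes as a copy of TOMM7 held 9 counts in WT_1 and 0 in the other libraries, so few reads were counted there. TOMM34, a cytosolic co-chaperone that keeps precursors unfolded, had an FPKM of 11.6, 10.8 and 10.1 in FT cells and 7.33, 9.05 and 7.02 in WT cells. TOMM34 rose by 0.63 on the log2 scale (SE 0.13, edgeR adjusted p = 0.0111), and lost its call only without WT_1 (log2 fold change 0.58, edgeR adjusted p = 0.0558).

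**Figure D2:**
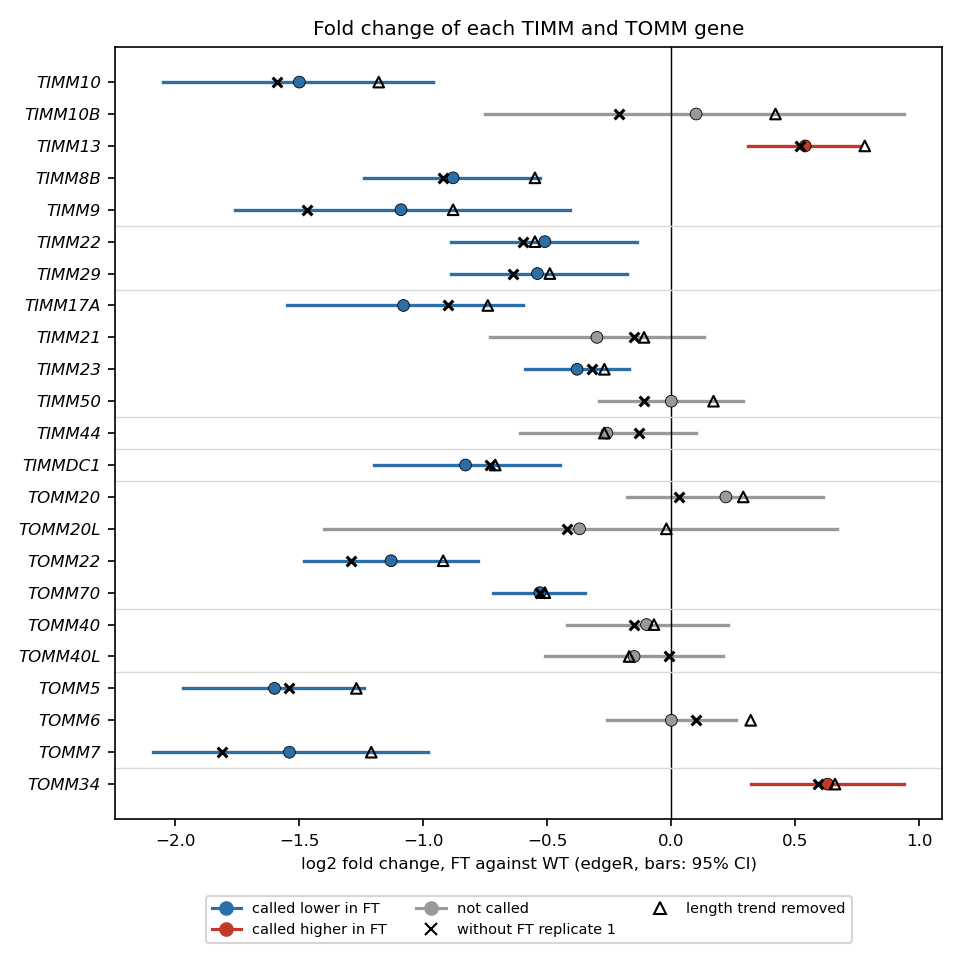
Log2 fold change of FT against WT cells for each gene with its 95% confidence interval from edgeR (blue, called lower; red, called higher; grey, not called), with crosses for the value without FT_1 and triangles for the value with the length trend removed. The fitted values run from -1.6 for TOMM5 to 0.63 for TOMM34, and the signs of TIMM10B, TIMM50 and TOMM6, all near 0, changed with the scaling.

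The inner and outer membrane genes were set against each other next. Of 13 TIMM genes, 8 were called lower and 1 higher, with a median log2 fold change of -0.51. Of 10 TOMM genes, 4 were lower and 1 was higher, with a median of -0.26. The same shares over all tested genes were the 18.9 and 20.1% given before, and their median was 0.03. After a fit that took out a trend on gene length, the medians were -0.49 for TIMM and -0.12 for TOMM genes.

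The mean log2 FPKM of the TIMM genes was 3.41, 3.34 and 3.28 in FT_1, FT_2 and FT_3 and 4.03, 4.12 and 3.96 in WT_1, WT_2 and WT_3. That of the TOMM genes was 4.21, 4.04 and 4.08 in FT cells and 4.75, 4.84 and 4.62 in WT cells. Both means were lower in each FT library than in any WT library, by 0.69 for TIMM and 0.62 for TOMM genes between group means. The inner minus outer difference in log2 FPKM was -0.80, -0.71 and -0.80 in FT cells and -0.72, -0.72 and -0.66 in WT cells. The groups overlapped, with a mean of -0.77 ± 0.05 (SD, n = 3) in FT and -0.70 ± 0.04 in WT cells.

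The direction of this small difference, -0.07, was set by how the genes were summarised. With the membrane subunits only (no small TIM chaperones, TIMMDC1 or TOMM34) the inner minus outer difference was -0.66 ± 0.15 (SD, n = 3) in FT and -0.80 ± 0.07 in WT cells, and the FT minus WT value turned to 0.14. By library this difference was -0.82, -0.53 and -0.62 in FT cells and -0.84, -0.84 and -0.71 in WT cells, so the groups overlapped only through FT_1. With the median gene in place of the mean, the difference was -1.19, -0.59 and -0.55 in FT cells and -1.70, -1.58 and -1.55 in WT cells. The groups were then apart, and the FT minus WT value turned to 0.84. No stable shift between inner and outer membrane genes was therefore measured, while differences among genes of the same membrane were larger.

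**Figure D3:**
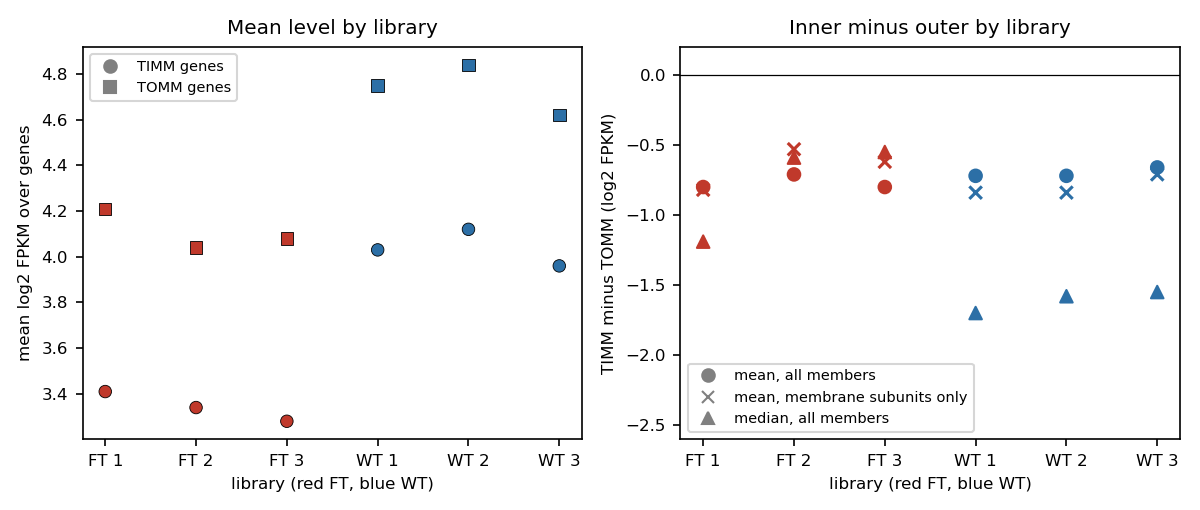
Left, mean log2 FPKM of TIMM (circles) and TOMM (squares) genes in each library; right, the TIMM minus TOMM difference in log2 FPKM by the mean, by membrane subunits only and by the median (FT red, WT blue). Both means are lower in FT libraries, and the difference by the mean lies between -0.80 and -0.66 in all 6 libraries.

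Ratios between genes were taken in FPKM within each library, where a common scaling factor drops out but a trend on gene length does not. All pairs but TIMM10 to TIMM13, chaperones of different complexes, join genes that work together. TIMM9 and TOMM70 were longer than the second gene of their pair, and the first gene was shorter in the other pairs. The ratios were not corrected for length. The 8 pairs were chosen after the values had been seen, so they are a description without a test, and 3 libraries against 3 cannot give an exact permutation p under 0.1. The TIMM8B to TIMM13 ratio was 0.337, 0.358 and 0.282 in FT cells and 0.810, 0.918 and 0.871 in WT cells. The TIMM9 to TIMM10 ratio was 2.59, 1.88 and 1.37 in FT cells and 1.42, 1.3 and 1.78 in WT cells. The first pair was apart between groups and the second overlapped, and both genes of the second pair were called lower.

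At the outer membrane, the TOMM22 to TOMM40 ratio was 3.08, 2.44 and 2.73 in FT cells and 6.05, 5.18 and 5.88 in WT cells. The TOMM5 to TOMM6 ratio was 0.216 ± 0.00971 (SD, n = 3) in FT and 0.652 ± 0.0914 in WT cells. The TOMM7 to TOMM6 ratio was 0.2 ± 0.0884 in FT and 0.562 ± 0.0365 in WT cells. In each of these the highest FT library was below the lowest WT library. The same was true of TOMM70 to TOMM20 (0.566 ± 0.107 and 0.931 ± 0.0358) and of TIMM17A to TIMM23 (2.02 ± 0.389 and 3.29 ± 0.173), in both of which FT_1 was the lowest library. The ratio of TIMM10 to TIMM13 was 0.106 ± 0.0127 in FT and 0.439 ± 0.0553 in WT cells.

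**Figure D4:**
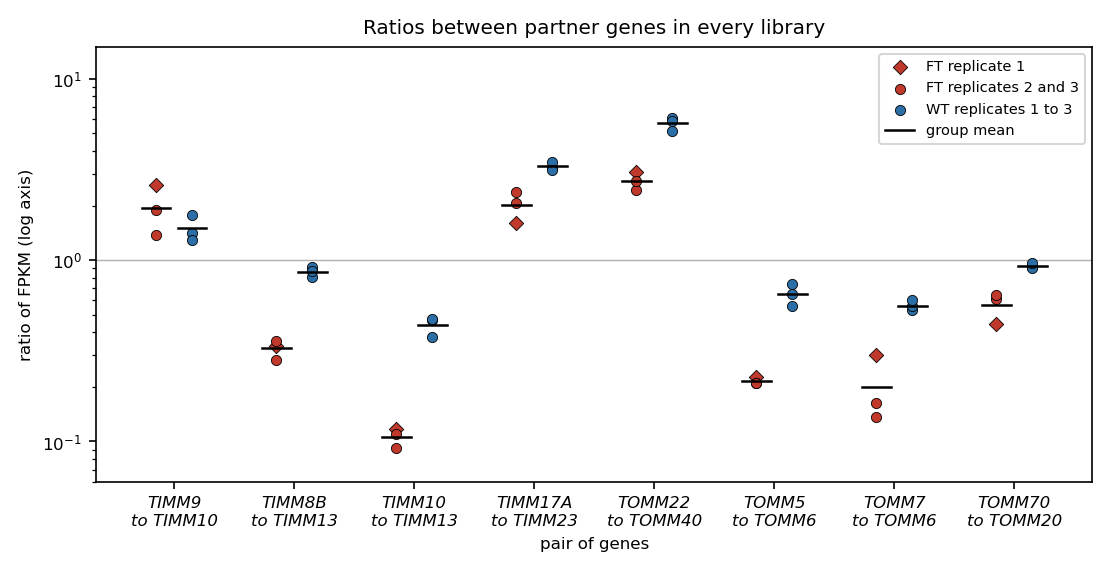
Ratio of FPKM (log axis) for 8 pairs of genes in each FT (red, FT_1 as a diamond) and WT (blue) library, with group means as bars. FT libraries lie below WT libraries in all pairs but TIMM9 to TIMM10, which overlaps. TIMM10 and TIMM13 are chaperones of different complexes.

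Many of these genes are short, and short genes were lower in FT cells in general. The length that links count and FPKM was taken relative to the median gene. Tested genes at up to 0.25 of that length (662 genes) had a median log2 fold change of -0.29, and 23.6% were called lower and 6.04% higher. Genes at 0.25 to 0.5 (1237 genes) had a median of -0.22, with 30.8% lower and 12.0% higher. Those at 0.5 to 1 had a median of -0.04, with 22.8% lower and 18.8% higher, those at 1 to 2 one of 0.11, with 17.7% lower and 25.2% higher, and those over 2 one of 0.26, with 10.6% lower and 34.3% higher. The median relative length was 0.468 for the 23 members and 1.01 for all tested genes.

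Of 7 members at up to 0.25, 5 were called lower, with a median log2 fold change of -1.08. These were TOMM5, TOMM7, TIMM10, TIMM17A and TIMM8B, at 0.188 to 0.241 of the median length. The others, TIMM10B and TOMM20L, had low counts and wide intervals, so their direction is open. Of 5 members at 0.25 to 0.5, 2 were lower and 1 higher, with a median of -0.30. Of 8 at 0.5 to 1, 4 were lower and 1 higher, with a median of -0.24, and of 3 at 1 to 2, 1 was lower, with a median of -0.26. With the trend on length removed, 12 members were again called lower and 2 higher, beside 19.0 and 19.5% of all tested genes in that fit. The fall was then 1.27 for TOMM5, 1.21 for TOMM7, 1.18 for TIMM10, 0.74 for TIMM17A and 0.55 for TIMM8B on the log2 scale. Members without a call moved too, to 0.32 for TOMM6, 0.42 for TIMM10B, -0.11 for TIMM21 and -0.02 for TOMM20L, and stayed uncalled. RNA quality was not tested, since no measure of it per library was used here.

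**Figure D5:**
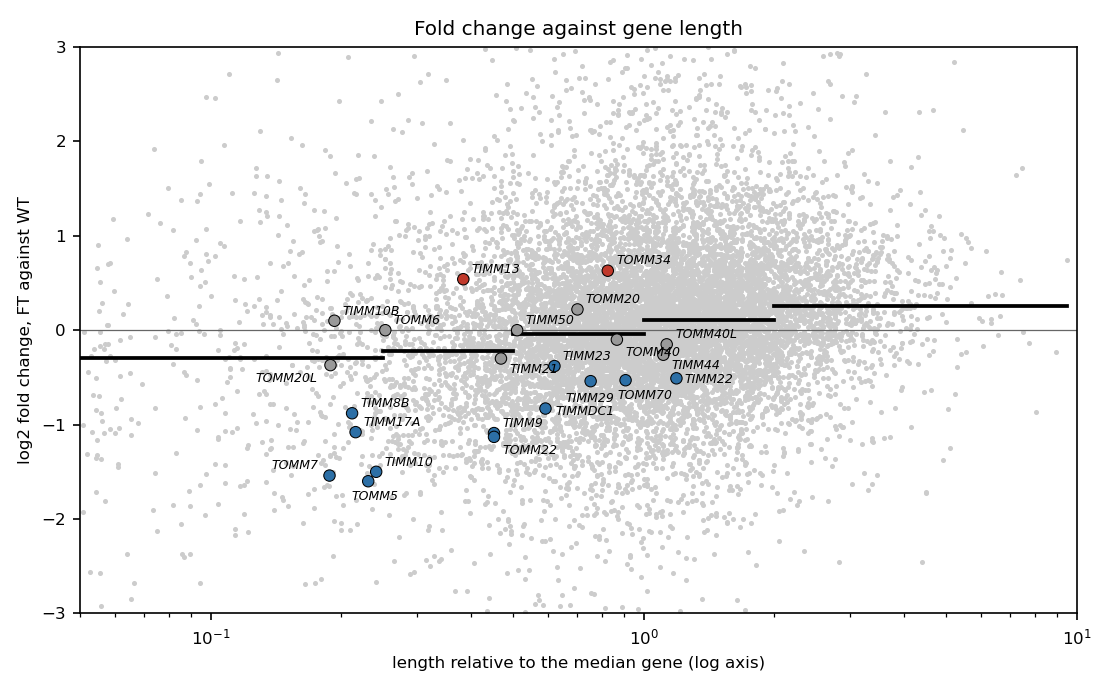
Log2 fold change of FT against WT cells against gene length relative to the median gene (log axis) for all tested genes with a length (grey) and the TIMM and TOMM genes (coloured by call), with black bars for the median of all genes in 5 length ranges (414 genes lie beyond the axes). The medians go from -0.29 for the shortest to 0.26 for the longest genes, and TOMM5, TOMM7 and TIMM10 lie between -1.6 and -1.5, well under the first bar.

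The other genes of the import pathway came from 7 lists of 36 genes, of which 35 were in the table and tested. Among these, 18 were called lower and 2 higher, and the median log2 fold change was -0.41, beside the 18.9 and 20.1% and the median of 0.03 of all tested genes. Without FT_1 the median was -0.43, and 25 were called lower and 3 higher, in a fit where the shares over all tested genes were 31.5 and 30.6%. In the import motor and its TIM partners 5 of 8 were lower. ROMO1, a small inner membrane protein tied to TIM23, had an FPKM of 32.1, 32.8 and 36.2 in FT cells and 130, 129 and 118 in WT cells, and fell by 1.74 on the log2 scale (SE 0.10, edgeR adjusted p = 5.23e-04). HSPA9, the Hsp70 of the motor that TIMM44 anchors, had 132, 131 and 142 in FT cells and 262, 256 and 283 in WT cells, and fell by 0.83 (SE 0.09, edgeR adjusted p = 0.00184). TIMM44 itself, at -0.26, was not called.

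The chaperonins that fold imported proteins were lower too. HSPE1 had an FPKM of 69.9, 61.6 and 54.8 in FT cells and 205, 230 and 174 in WT cells and fell by 1.55 on the log2 scale (SE 0.14, edgeR adjusted p = 0.00107). HSPD1 had 81.9, 76.8 and 82.1 in FT cells and 193, 224 and 184 in WT cells and fell by 1.16 (SE 0.10, edgeR adjusted p = 0.00114). The table holds a second gene named HSPD1, with a log2 fold change of -0.46 (edgeR adjusted p = 0.0632). This copy was called lower without FT_1 (log2 fold change -0.63, edgeR adjusted p = 1.32e-04), in DESeq2 (DESeq2 adjusted p = 0.0293) and in limma (limma adjusted p = 0.0241). How reads were split between the copies is not given in the sources used here. Of the presequence processing genes 4 of 7 were lower, beside 18.9% of all tested genes, among them PMPCB, a subunit of the peptidase that removes presequences (log2 fold change -1.07, SE 0.10, edgeR adjusted p = 0.00114).

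In the SAM complex and outer membrane insertion list 3 of 6 were lower, where 18.9% of all tested genes were lower and 20.1% higher. SAMM50, which inserts barrel proteins such as TOMM40 into the outer membrane, had an FPKM of 43.2, 32.7 and 31.3 in FT cells and 56.3, 57.3 and 56.4 in WT cells. SAMM50 had a log2 fold change of -0.51 (edgeR adjusted p = 0.0231), or -0.66 without FT_1, and the call was lost without FT_2, FT_3, WT_1, WT_2 or WT_3 (edgeR adjusted p from 0.0673 to 0.0783). The log2 fold change of SAMM50 was -0.52 to -0.43 in the fits that lost the call. CHCHD4, which oxidises the small TIM proteins as they enter, had 14.6, 7.33 and 6.91 in FT cells and 10.8, 11.9 and 9.60 in WT cells. FT_1 was above WT and the other FT libraries were below it, so the log2 fold change was -0.01 with all libraries and -0.42 without FT_1 (edgeR adjusted p = 0.0118). The 2 genes called higher, both of the protease list, were CLPP (log2 fold change 0.63, edgeR adjusted p = 0.00278) and SPG7 (0.33, edgeR adjusted p = 0.0187), and SPG7 lost its call with library totals only (edgeR adjusted p = 0.136), in limma on FPKM (log2 fold change 0.16, limma adjusted p from 0.148 to 0.154) and without FT_3, WT_1, WT_2 or WT_3 (edgeR adjusted p from 0.0545 to 0.0817). Of the other lists, 3 of 4 matrix folding genes, 1 of 2 insertion genes and 2 of 6 protease genes were lower, and edgeR with all libraries and the length trend left in called neither of the 2 disulfide relay genes. GFER of that list, named after its values had been seen, had a log2 fold change of 0.31 (edgeR adjusted p = 0.0635), and passed in DESeq2 (DESeq2 adjusted p = 0.0399), with the length trend removed (edgeR adjusted p = 0.0475) and without FT_1 (edgeR adjusted p = 0.0397).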

How the data were processed

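Gene expression was measured by poly(A) RNA sequencing of 6 libraries, 3 FT and 3 WT. The authors deposited 1 table that gives every gene's raw count and FPKM in each library, made with HISAT2 2.0 and StringTie 1.3.0 per the labels, which also name Bowtie 0.12.2 and a mouse build. The cattle build, the annotation and the strand setting are not given in the sources used here. Raw counts were fitted in edgeR 4.0.16 (R 4.3.3) with TMM factors, filterByExpr, glmQLFit and glmQLFTest, with group as the only term. SE is the fold change over the root of F. FPKM was used for levels and ratios, and in limma 3.58.1 as log2(FPKM + 1) for genes with a mean of at least 0.5. DESeq2 1.42.0, other scalings, a length correction, a replicate block and leaving out each library were alternatives. Scripts were tested on counts simulated with the means and spread of the WT libraries, where no library stood apart as FT_1 did.

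The named genes were all members, of 7 other import lists the 4 called genes with the smallest p in each direction plus HSPA9, HSPD1, SAMM50 and CHCHD4, and of 8 marker lists the most abundant gene. GFER, further marker genes and neighbours were named after their values had been seen. Of 2 genes named HSPD1 the more abundant was counted. Members and lists were chosen with earlier results of these data known. RefSeq (ARS-UCD2.0) lists 25 TIMM and TOMM genes by symbol, and 23 matched. TIMM8A and TIMM17B were not analysed here, since the authors' table, which holds chromosomes 1 to 29 only, has no row named for them. Each library came from another fetus, so p measures the spread between 3 fetuses a group.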

Additional observations from a re-analysis of the deposited data

How the results depend on the processing

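Of 12 members called lower, 8 were called lower in all 15 other fits (TIMM10, TIMM8B, TIMM17A, TIMMDC1, TOMM22, TOMM70, TOMM5 and TOMM7), and TIMM13 was called higher in all. The share of all tested genes that kept a call in every fit was not computed, so members cannot be set against other genes here. Leaving out 1 library at a time gave 3047 to 8552 called genes, 8 to 12 members lower and 1 to 2 higher, medians of -0.60 to -0.45 for TIMM and -0.38 to -0.17 for TOMM genes, 13 to 25 other import genes lower and 1 to 3 higher, and an inner to outer value of -0.10 to -0.05 (chosen after seeing the data). The most genes were called without FT_1 (8552) and the fewest without WT_1 (3047). Of the 13765 to 13849 genes tested in these fits, 1531 to 4337 were called lower and 1516 to 4215 higher. At the unadjusted p and fold threshold the counts were 2586 of all genes, 6 members lower and 0 higher, and 7 other import genes lower and 0 higher. The TIMM and TOMM medians were -0.66 and -0.41 with library totals only and -0.65 and -0.41 in limma on log2(FPKM + 0.1), and the TOMM median was -0.12 with the length trend removed. Other import genes called higher were 1 with library totals only, in each limma fit and with the replicate block, and 4 with the length trend removed. The inner to outer value was 0.14 with membrane subunits only and 0.84 by the median. The share of called genes that were lower was 48.4% with TMM, 62.4% with library totals only and 65.2 to 67.5% in limma on FPKM. The cause of these shifts was not tested.

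Genes near 0 changed sign, and no fit with a changed sign called them. TIMM10B ran from -0.21 to 0.29 and TIMM50 from -0.11 to 0.08 with 1 library left out, TOMM6 from -0.05 to 0.10, TOMM40 from -0.17 to 0.03 and CHCHD4 from -0.42 to 0.17. TIMM10B was at -0.05 with library totals only, -0.07 in limma with and without the filter, -0.10 with a pseudocount of 0.1, -0.21 without FT_1 and -0.04 without WT_3. TIMM50 was at -0.15 with library totals only, -0.16 in each limma fit, -0.01 without a low-count filter, with the replicate block and without WT_2, -0.11 without FT_1 and -0.03 without WT_1. TOMM6 was at -0.15 with library totals only, -0.16 in each limma fit, -0.01 without a low-count filter, with the block and without WT_1, -0.05 without FT_2 or FT_3 and -0.02 without WT_3. TOMM40 was at 0.03 without WT_2. CHCHD4, whose alternatives were chosen after seeing the data, was at 0.12 with the length trend removed, 0.15 without FT_2, 0.17 without FT_3 and 0.06 without WT_2.

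Libraries with the same number did not deviate together (correlations of -0.001, -0.020 and 0.018 between FT and WT). A pairing by number was thus not seen, but 3 libraries a group with FT_1 apart are too few to exclude it. With the replicate block 3579 genes, 9 members lower and 2 higher were called, and the medians were -0.51 for TIMM and -0.27 for TOMM genes. The block ended the calls of TIMM22, TIMM29 and TIMM23 (edgeR adjusted p = 0.0745, 0.096 and 0.0525), SAMM50 (0.052) and SPG7 (0.0647). Their log2 fold changes stayed near their size with the block, at -0.51, -0.54, -0.38, -0.52 and 0.32 in the same order. Among other import genes 15 were lower and 1 was higher. With 3 libraries a group and FT_1 apart, small fold changes of genes with few counts, such as TOMM20L and TIMM10B, cannot be resolved.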

Other observations

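Within FT cells, FT_1 lay above both other libraries in FPKM in 13 of the 23 TIMM and TOMM genes, below both in 8 and between them in 2. The same counts were not taken over all tested genes, among which FT_1 also stood apart. They cannot be called particular to the TIMM and TOMM genes. It was highest relative to the mean of FT_2 and FT_3 in TIMM9 (1.97 times), TIMM10B (1.76 times) and TOMM7 (1.66 times), and lowest in TIMM17A (0.66 times) and TIMM21 (0.708 times). The part of the epithelial and mesothelial marker levels of FT_1 in this was not tested.

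Some members lie close to a gene on the other strand. ARFIP2, which starts 66 bases from TIMM10B, rose by 0.39 on the log2 scale (edgeR adjusted p = 0.0209), and YIPF2, 159 bases from TIMM29, rose by 0.21 (edgeR adjusted p = 0.0484), while TIMM29 was lower in FT cells. DESeq2 called both higher (DESeq2 adjusted p = 0.00305 for ARFIP2 and 0.00567 for YIPF2). Both calls were lost in limma on FPKM and with some single libraries left out. In limma on log2(FPKM + 1) the log2 fold change was 0.22 for ARFIP2 (limma adjusted p = 0.111) and 0.05 for YIPF2 (limma adjusted p = 0.551), whose mean FPKM was 39.0 in FT and 37.7 in WT cells. ARFIP2 lost its call without FT_2, WT_1 or WT_3 (edgeR adjusted p up to 0.092), and YIPF2 when any library but FT_1 was left out (edgeR adjusted p up to 0.171). These neighbours were picked by distance, within 500 bases, after the values had been seen.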
